A study of Rattus norvegicus with 47 samples.

Results

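The striatum and the cerebellum were compared within each of 10 sham rats that had a library from both regions. The members are 20 of the 47 samples in the labels (44 of these have a column of counts): striatal and cerebellar libraries of 4 sham males (animals 1, 3, 9 and 11) and 6 sham females (animals 2, 4, 6, 8, 10 and 12). They were taken as every sham animal with a column in both deposited count tables, without use of any measured value. All were Sprague-Dawley rats, assigned to their group at 39 days of age (males) or 42 days (females). In the exposed group of the same study, nose-only inhalation of PCB52, a polychlorinated biphenyl, lasted 4 h daily for 28 days. The labels call the animals used here sham, with no agent and no separate account of their handling. The tissue was a punch of each region, so each library holds RNA of all cells in the punch. Total counts ran from 6312087 to 8914523 per striatal library and from 6731768 to 8442982 per cerebellar library, with medians of 6656694 and 7124518.5.

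The striatum is the input station of the basal ganglia. Most of its neurons are GABA-releasing spiny projection neurons, which receive cortical glutamate and nigral dopamine and fall into a direct pathway type with D1 receptors and an indirect pathway type with D2 receptors. The cerebellum is a hindbrain derivative dominated in number by small glutamatergic granule cells, whose axons drive the large GABA-releasing Purkinje cells, the sole output of its cortex. In bulk tissue, a difference in a marker gene can come from fewer cells of a type or from less RNA per cell, and these cannot be told apart. Each region has its own count table, and the sources used here do not say whether the regions were prepared and sequenced together, so region and preparation cannot be told apart either.

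Some libraries stood apart. Transcripts of both sexes (Xist, the RNA that coats the inactive X chromosome, and Eif2s3y, a Y-linked gene, each above 3 CPM) were present in cerebellum of animals 8, 9, 10 and 11 and in striatum of animal 3, 5 animals in all. The other library of each of these animals held transcripts of 1 sex only by this limit. CPM are counts scaled to a common library size after TMM, an adjustment for differences in composition. Cerebellum of animal 1 held 2135 CPM of Ttr, the choroid plexus transthyretin gene, against 0.957 to 24.0 CPM in the other cerebella. Striatum of animal 12 held 223 CPM of Cdhr1, a gene of olfactory bulb output neurons, against 3.33 to 15.89 CPM in the other striata. Counts of genes without the 5 animals, and without animals 1 and 12, are therefore given beside the main counts.

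Most genes measured differed between the regions. Of 11731 genes tested, 8952 (76.3%) differed between the regions of the same animal (edgeR quasi-likelihood test with the animal as a block, Benjamini-Hochberg adjusted p under 0.05), 4298 (36.6%) being higher and 4654 (39.7%) lower in striatum. Differences are given as fitted log2 differences, striatum minus cerebellum, ± their fitted standard error (SE), so positive values are higher in striatum. Their median over all genes was -0.03 and the median of their sizes was 0.48. Because small differences passed so often, a stricter test asked whether a difference exceeded 2-fold. It called 2253 genes (19.2%), of which 1447 (12.3%) were higher in striatum and 806 (6.87%) in cerebellum. These call rates are the background for every gene group below. With 36.6% of all genes higher and 39.7% lower, members in both directions are common in any group.

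The large differences lay mostly on the striatal side. Among the genes past the over 2-fold test, 164 higher in striatum and 60 higher in cerebellum had a log2 difference beyond 5. A mean of at least 10 CPM in the higher region beside less than 1 CPM in the other was found for 100 striatal and 39 cerebellar genes. The libraries of the regions did not overlap for 1263 of the 1447 striatal and 766 of the 806 cerebellar genes, against 3673 (31.3%) of all genes tested. The sign was the same in each of the 10 animals for 1422 of the 1447 striatal genes. These genes were selected on the same 10 animals, which favours separate libraries and a shared sign. The overlap and sign counts therefore describe the selected genes and are no separate test of them. Without the 5 animals with transcripts of both sexes, 7069 genes were called and 1922 passed the over 2-fold test. Of the 2253 genes, 1875 passed it in the remaining 5 animals in the same direction and 0 in the opposite one. Without animals 1 and 12, 8759 genes were called and 2277 passed, 2175 of the 2253 among them. The animals kept in each case are among the 10 that selected the genes. The counts therefore show dependence on the animals left out and are no independent repeat.

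**Figure D1:**
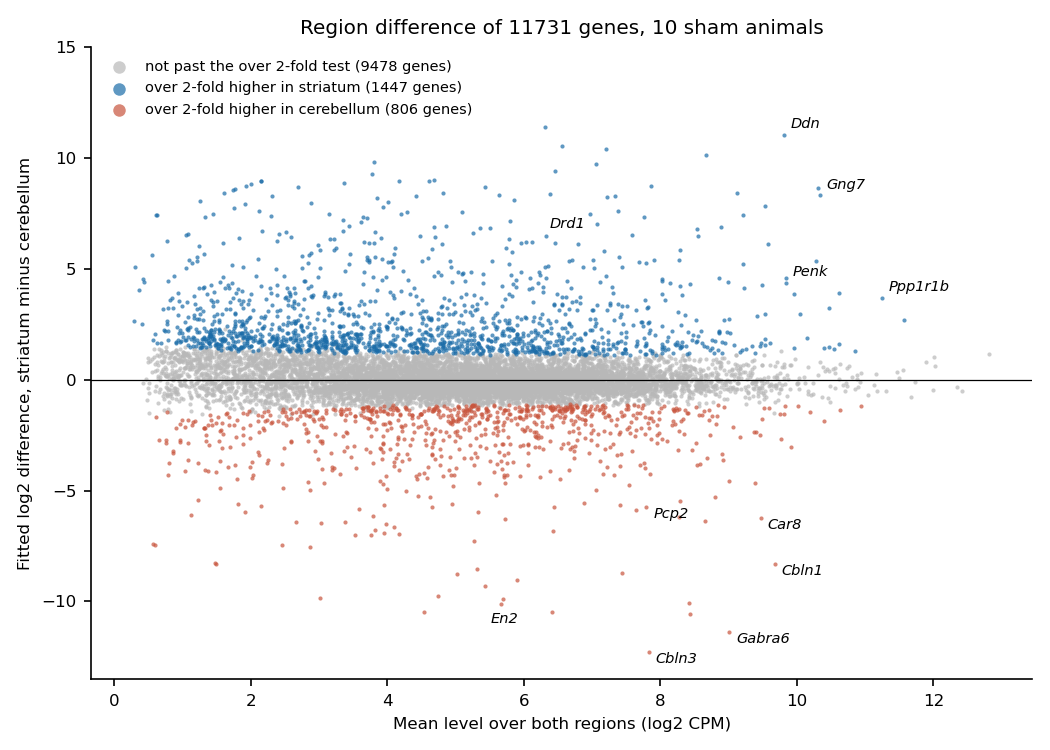
Fitted log2 difference between striatum and cerebellum (y axis) against mean level over both regions in log2 CPM (x axis), 1 point per gene tested in 10 sham animals. Coloured points are the 1447 genes past the over 2-fold test towards striatum (blue) and the 806 towards cerebellum (red), and the striatal points reach further from 0 at most levels.

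Promoter windows of these genes are described by their letters alone. RefSeq windows (assembly GRCr8) of 300 bases, 250 before and 50 after each start, were matched for 1129 of the 1447 striatal and 586 of the 806 cerebellar genes and for 9560 of all 11731 genes tested. The window of 4 genes is shown, a pair from the striatal side, Pdyn and Tac1, and a pair from the cerebellar side, Gabra6 and Neurod1. They were picked after their windows and values were seen, as genes with large differences and different base composition. Capitals mark TATAAA (the TATA element) in Pdyn, TGACG (the core of the cyclic AMP response element) in Tac1 and CANNTG (the E-box, bound by proneural factors such as the product of Neurod1) in Gabra6 and Neurod1, each searched on both strands and without regard to overlap with the other motifs. The TGACG match in Tac1 is on the opposite strand and reads CGTCA. The windows of Pdyn and Tac1 also hold CANNTG, left unmarked there, so this motif is present in all 4 windows. The windows are chr3:137366454-137366753 on the minus strand for Pdyn, chr4:36645333-36645632 on the plus strand for Tac1, chr10:27327185-27327484 on the minus strand for Gabra6 and chr3:84770405-84770704 on the minus strand for Neurod1.
Pdyn: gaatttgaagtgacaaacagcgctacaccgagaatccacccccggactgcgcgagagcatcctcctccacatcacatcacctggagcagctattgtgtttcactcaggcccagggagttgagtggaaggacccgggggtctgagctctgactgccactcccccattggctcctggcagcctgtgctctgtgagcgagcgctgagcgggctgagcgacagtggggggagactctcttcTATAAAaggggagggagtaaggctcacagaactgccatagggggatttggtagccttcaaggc
Tac1: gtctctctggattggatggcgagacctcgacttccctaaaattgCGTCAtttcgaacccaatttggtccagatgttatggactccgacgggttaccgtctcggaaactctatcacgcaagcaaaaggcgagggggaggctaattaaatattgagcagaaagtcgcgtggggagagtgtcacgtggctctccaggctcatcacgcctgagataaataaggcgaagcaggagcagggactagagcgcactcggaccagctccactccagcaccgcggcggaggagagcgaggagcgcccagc
Gabra6: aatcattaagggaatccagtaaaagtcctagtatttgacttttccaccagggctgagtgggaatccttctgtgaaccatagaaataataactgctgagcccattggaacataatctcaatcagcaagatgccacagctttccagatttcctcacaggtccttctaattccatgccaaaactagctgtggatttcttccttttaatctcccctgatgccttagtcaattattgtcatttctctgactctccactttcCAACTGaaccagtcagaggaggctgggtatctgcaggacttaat
Neurod1: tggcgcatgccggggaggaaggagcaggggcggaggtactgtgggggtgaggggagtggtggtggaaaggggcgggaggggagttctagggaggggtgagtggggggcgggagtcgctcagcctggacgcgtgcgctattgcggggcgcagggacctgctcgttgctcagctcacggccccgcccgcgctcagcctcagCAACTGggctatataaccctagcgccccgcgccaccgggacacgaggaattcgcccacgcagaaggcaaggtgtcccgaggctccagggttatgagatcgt

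The windows of Tac1 and Neurod1 hold 22 and 25 CpG dinucleotides, that of Pdyn holds 10 and that of Gabra6 holds 0. Over all genes tested the median was 21 CpG and 7.66% of windows held fewer than 5. The median was 18 among the striatal genes and 19 among the cerebellar genes past the over 2-fold test, with 10.3% and 10.9% of windows under 5. TATAAA was found in 9.48% of the striatal and 7.51% of the cerebellar windows, against 6.41% over all genes tested and 14.3% over all 27457 windows of the table. TGACG occurred in 23.6% and 27.1%, against 32.0% over all genes tested and 22% over the table. CANNTG occurred in 67.8% and 66.2%, against 62.7% and 71.6%. A match describes the letters in the window and shows no binding.

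Dopamine receptor genes separated the regions in every library. Drd1, the receptor of direct pathway neurons, ran from 303 to 477 CPM (median 359.01) in striatum and from 0.868 to 7.27 CPM (median 4.26) in cerebellum, so that the lowest striatal library stood far above the highest cerebellar one. Its log2 difference was 6.52 ± 0.16 (edgeR adjusted p = 6.02e-15). Drd2, the receptor of indirect pathway neurons, ran from 341.5 to 506 CPM (median 443) and from 1.89 to 3.23 CPM (median 2.78), a log2 difference of 7.34 ± 0.10 (edgeR adjusted p = 2.08e-17). The animals differed little in it, from 6.73 to 7.73.

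Of 7 measured direct pathway markers, 6 were higher in striatum and 1 lower, with a median log2 difference of 7.60. Pdyn, which encodes the precursor of dynorphin, ran from 201 to 322 CPM (median 267) in striatum, while cerebellar libraries held 0 to 1.08 CPM (median 0.137). Tac1, the substance P precursor gene, had a log2 difference of 8.28 ± 0.33, and Chrm4, a muscarinic receptor gene of these neurons, one of 8.09 ± 0.20. Ebf1, a transcription factor used as a marker of developing direct pathway neurons, was the exception at -0.99 ± 0.13, with 12.5 CPM in striatum and 24.4 CPM in cerebellum (medians). All 8 indirect pathway markers were higher in striatum, 7 of them over 2-fold, with a median of 6.45. Penk, the enkephalin precursor gene, ran from 1417 to 2363 CPM (median 1720.5) in striatum and from 66.5 to 111 CPM (median 81.8) in cerebellum. Adora2a, the adenosine receptor gene coexpressed with Drd2, had a log2 difference of 6.48 ± 0.11. Gpr6, an orphan receptor gene, held 149.8 to 235 CPM (median 189) in striatum and 0 to 0.540 CPM (median 0) in cerebellum, where most libraries had 0 counts. Grik3, a kainate receptor subunit gene of the same list, differed by 0.74 ± 0.17, and its libraries overlapped.

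All 22 markers shared by both projection neuron types passed the over 2-fold test towards striatum, with a median of 4.83. Ppp1r1b, encoding the dopamine-regulated phosphatase inhibitor DARPP-32, ran from 3487 to 6030.5 CPM (median 4459.7) in striatum and from 280.1 to 412 CPM (median 335) in cerebellum. Gng7, the G protein gamma subunit that partners the olfactory type alpha subunit in striatum, ran from 2068 to 3045 CPM (median 2557) against 5.42 to 11.2 CPM (median 8.20), a log2 difference of 8.31 ± 0.11. Rgs9, a regulator that shortens dopamine receptor signals, stood at 6.79 ± 0.13. Foxp1 (3.85 ± 0.16) and Foxp2 (3.40 ± 0.12), a related pair of forkhead transcription factor genes, had smaller differences. The list mean, the mean log2 CPM of its members, lay between 8.64 and 9.18 in the 10 striata and between 3.36 and 3.79 in the 10 cerebella.

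**Figure D2:**
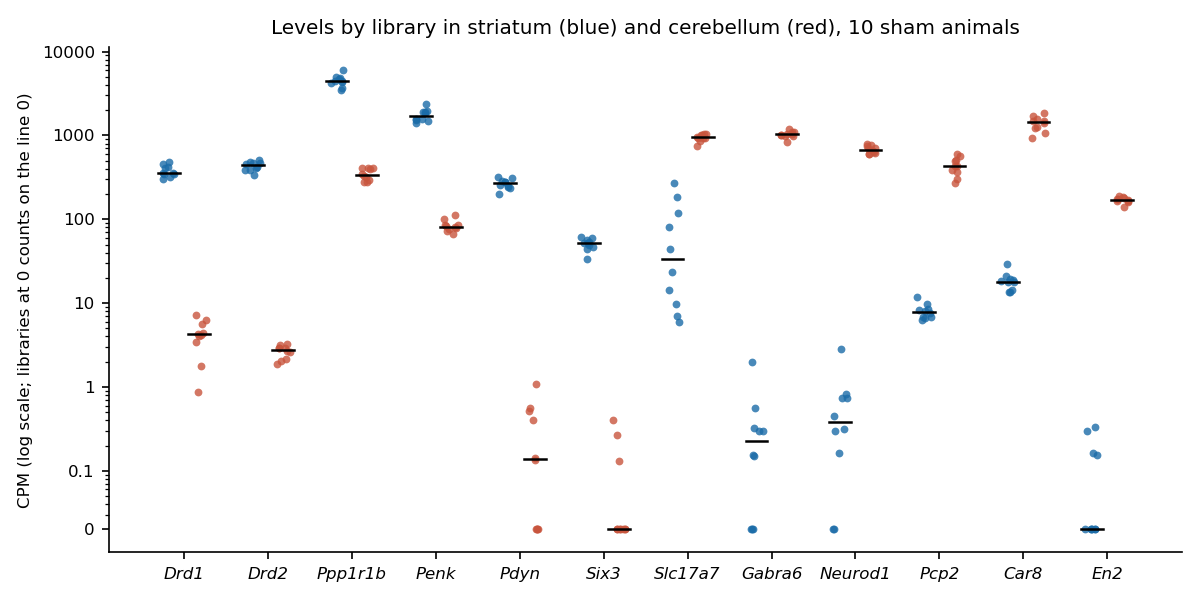
Levels in CPM (log axis, with 0 counts on a line of their own) of 12 genes in the 10 striatal (blue) and 10 cerebellar (red) libraries of sham animals, with bars at the medians. Libraries of the regions do not overlap for any of the 12, while Slc17a7 spreads widely over the striata, from 5.93 to 269 CPM.

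The cascade behind these receptors differed member by member. Of 36 measured genes of dopamine and cyclic AMP signalling, 23 were higher in striatum, 10 lower and 3 were not called, 17 and 2 of them over 2-fold, with a median of 1.09. Gnal, the alpha subunit that couples D1 and adenosine receptors to adenylyl cyclase in striatum, ran from 486 to 698 CPM (median 576) against 60.4 to 85.7 CPM (median 79.8), a log2 difference of 2.92 ± 0.05. Gnas, which encodes the widely used stimulatory alpha subunit, went the other way at -0.63 ± 0.08. Adcy5, the main striatal adenylyl cyclase gene, differed by 4.61 ± 0.09, while the calcium-stimulated cyclases Adcy1 (-1.85 ± 0.14) and Adcy8 (-2.71 ± 0.16) were lower in striatum. Phosphodiesterases that break down cyclic nucleotides were higher in striatum for Pde1b (5.20 ± 0.07), Pde2a (4.12 ± 0.06), Pde7b (3.69 ± 0.10), Pde8b (4.73 ± 0.14) and Pde10a (4.44 ± 0.17), and lower for Pde1c (-0.86 ± 0.12). Among subunits of protein kinase A, the regulatory subunit gene Prkar2b differed by 3.20 ± 0.07. The catalytic subunit genes stood at -0.28 ± 0.05 (Prkaca) and 0.10 ± 0.09 (Prkacb), the second not called. Of the genes that handle dopamine itself, Maob, a degrading enzyme of glia, was higher in striatum at 1.06 ± 0.08. Slc18a2, the vesicular monoamine transporter gene, was not called at 0.28 ± 0.14. Th, the dopamine synthesis enzyme, did not pass the filter on low counts in these libraries.

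Striatal interneurons were represented by 11 measured genes, 8 higher and 3 lower in striatum. Chat, the acetylcholine synthesis enzyme of cholinergic interneurons, ran from 14.9 to 26.2 CPM (median 20.99) in striatum and from 0 to 0.719 CPM (median 0.0655) in cerebellum. Its partners Slc18a3 and Slc5a7, transporters of acetylcholine and of choline, stood at 7.21 ± 0.29 and 6.16 ± 0.35. Lhx8, a transcription factor of the cholinergic lineage, had 1 count over all cerebellar libraries, which gives a ratio of means of 728 with a counting interval of 131 to 28800. Sst (2.69 ± 0.09) and Npy (3.74 ± 0.21), peptides of another interneuron class, were higher in striatum. Nos1, the nitric oxide synthase of the same class, was lower at -1.38 ± 0.20. Pvalb and Calb2, calcium-binding protein genes used for the remaining classes, were lower at -5.30 ± 0.27 and -6.35 ± 0.47, and both are also abundant in cerebellar neurons. Calb2 stood at 121 CPM in striatum 12 and at most 11.2 CPM in the other striata.

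Purkinje cell genes were lower in striatum for 16 of 17 measured members, all 16 over 2-fold, with a median of -3.76. Pcp2, a G protein modulator gene named for this cell, ran from 270.2 to 607 CPM (median 429) in cerebellum and from 6.23 to 11.8 CPM (median 7.83) in striatum. Car8, whose product binds the inositol trisphosphate receptor, ran from 934 to 1843 CPM (median 1440.1) against 13.5 to 29.1 CPM (median 18.04), a log2 difference of -6.25 ± 0.15. Calb1, the calbindin gene, was less separated at -2.37 ± 0.09, since striatum held 208 CPM beside 1154 in cerebellum (medians). The member in the other direction was Itpka, an inositol phosphate kinase gene, at 0.51 ± 0.07.

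All 19 measured granule cell genes passed the over 2-fold test towards cerebellum, with a median of -5.47. Gabra6, the GABA-A receptor subunit gene that defines mature granule cells, ran from 842 to 1205 CPM (median 1030.5) in cerebellum. Striatal libraries held 0 to 1.98 CPM (median 0.225) of it, and the highest was animal 12. Cbln3, a synaptic organizer gene of granule cells, ran from 317 to 619 CPM (median 465) in cerebellum against 0 to 0.331 CPM (median 0) in striatum, and had the largest log2 difference towards cerebellum among genes of at least 10 CPM there, -12.28 ± 0.20 (edgeR adjusted p = 1.33e-16). Neurod1, the proneural factor gene of granule cells, ran from 597 to 795 CPM (median 677) against 0 to 2.81 CPM (median 0.382). Slc17a7, the vesicular glutamate transporter gene of granule cells and cortical neurons, was the most variable member. It ran from 5.93 to 269 CPM (median 33.9) in striatum and from 753 to 1052 CPM (median 953) in cerebellum, a log2 difference of -4.59 ± 0.68 (edgeR adjusted p = 1.23e-04). Of 10 genes of cerebellar inhibitory interneurons and unipolar brush cells, 7 were lower in striatum, each over 2-fold, among them Tfap2b, a transcription factor gene, at -5.26 ± 0.14. Ptprk, a receptor phosphatase gene, was the member called in the other direction, at 0.28 ± 0.09, and the call was lost in males alone (edgeR adjusted p = 0.443), without the 5 animals with transcripts of both sexes (0.113) and in a joint fit with PCB52 animals (0.125).

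Transcription factor genes listed for forebrain or for cerebellum and hindbrain took the direction of their list. All 18 measured forebrain factors were higher in striatum (16 over 2-fold, median 8.61) and all 22 cerebellar and hindbrain factors were lower (22 over 2-fold, median -5.71). Libraries of the regions did not overlap for 16 of the 18 and for all 22. The 18 and 22 are those of 21 and 32 listed factors in the files that passed the filter on low counts. A gene near 0 in 1 region passes it only through the other region, which fixes its direction, so the shared direction is a description. With no filter the medians were 8.25 over 21 forebrain and -4.28 over 32 hindbrain factors. Egr3 and Nr4a1, counted among the 18, are activity-induced genes and also stand in the list of those genes. Tbr1, also among the 18, is a cortical factor gene and stands in the cortical excitatory neuron list as well. Its difference within animals ran from -1.08 (animal 1) to 4.15 (animal 6), and the part of cortical tissue in it was not tested. Dlx5 and Six3, homeobox genes of the striatal primordium, and Sp9, a zinc finger gene of indirect pathway neurons, held medians of 35.5, 52.3 and 48.9 CPM in striatum and 0 CPM in cerebellum. Bcl11b, the factor also called Ctip2 that matures spiny neurons, ran from 161 to 340.2 CPM (median 317) against 0 to 0.723 CPM (median 0.126). Dlx2, Emx2 and Nkx2-1, further forebrain homeobox genes, had 0 counts in all cerebellar libraries. With 3 counts in all 10 cerebella together taken as the floor (0.0406 CPM), they were at least 218-fold, 219-fold and 197-fold higher in striatum. On the other side, En2, the engrailed gene of the midbrain and hindbrain boundary, ran from 141 to 189 CPM (median 172) in cerebellum against 0 to 0.336 CPM (median 0) in striatum. Lhx1 and Barhl2, homeobox genes of Purkinje and granule lineages, held medians of 54.4 and 86.3 CPM in cerebellum and 0 CPM in striatum. Lhx1 had 3 striatal counts, a ratio of means of 1200 (counting interval 411 to 5820). Pax2 and Pax3, paired box genes, had 0 striatal counts and were at least 125-fold and 67.8-fold higher in cerebellum by the striatal floor of 0.0446 CPM. Zic1, a zinc finger gene of granule cells, was measurable in both regions, with medians of 13.98 CPM in striatum and 624 CPM in cerebellum.

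The other genes of largest difference had varied known roles. On the striatal side, Ddn, which encodes the dendritic protein dendrin, ran from 1565 to 2019.8 CPM (median 1771) against 0.262 to 1.89 CPM (median 0.775), a log2 difference of 11.04 ± 0.18. Lrrc10b, a leucine-rich repeat gene, ran from 474 to 959.7 CPM (median 863) against 0.120 to 1.76 CPM (median 0.556). Tnni3, the cardiac form of troponin I, held a median of 25.5 CPM in striatum and had 2 counts over all cerebella, for a ratio of means of 1010 (counting interval 281 to 8380). On the cerebellar side, Fat2, a giant cadherin gene of granule cells, ran from 369 to 1268 CPM (median 710.1) against 0 to 1.34 CPM (median 0.160). Crtam, best known as an adhesion gene of T cells, ran from 84.3 to 119 CPM (median 100.2) against 0 to 0.448 CPM (median 0). Uncx, a homeobox gene, Hes3, a Notch pathway repressor gene, and Impg1, a matrix gene known from photoreceptors, held cerebellar medians of 103, 116 and 64.1 CPM, with striatal medians of 0, 0.0792 and 0. Nrk, a kinase gene, had 0 striatal counts and was at least 362-fold higher in cerebellum.

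Some fitted differences depended on 1 animal, mostly where a region was close to 0 counts. Leaving out 1 animal moved the difference by over 1.5 times for 18 of the genes named by rule, and each stayed called in the same direction. Among them were moves from 10.56 to 11.24 for Gpr6 (without animal 2), 8.98 to 10.13 for Dlx5 (animal 8), 9.01 to 9.68 for Six3 (animal 8) and 8.95 to 9.56 for Sp9 (animal 3). Lhx8 went from 8.30 to 9.17 (animal 2), Slc18a3 from 7.21 to 7.93 (animal 3), Syt10 from 8.69 to 9.60 (animal 9) and Tmem212, an ependymal cell gene, from 3.87 to 4.49 (animal 12). On the cerebellar side Lhx1 went from -9.75 to -11.56 (animal 9), Crtam from -10.11 to -11.52 (animal 1), Barhl2 from -9.32 to -10.36 (animal 12), Gabra6 from -11.36 to -12.12 (animal 12), Uncx from -9.91 to -10.60 (animal 12), Neurod1 from -10.05 to -10.68 (animal 8) and Hes3 from -9.03 to -9.65 (animal 12). Folr1, a choroid plexus gene, went from 2.28 to 3.56 (animal 1). Over all 22 alternatives, 40 of the 96 genes named by rule moved by over 1.5 times at least once, and 37 of the 40 kept their call throughout. The largest such moves were those of Crabp1 (7.52 to 10.73), Six3 (8.37 to 11.55), Crtam (-12.48 to -9.24) and Chrm1 (7.76 to 10.95).

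Receptor and signalling families had subunits in both directions, as had all genes tested (36.6% higher and 39.7% lower in striatum). Of 13 measured GABA-A receptor subunit genes, 8 were higher and 5 lower in striatum, and 0 were left uncalled. The alpha subunit genes Gabra2 (3.75 ± 0.14), Gabra4 (2.98 ± 0.12) and Gabra5 (4.64 ± 0.24) were higher in striatum. Gabra6 (-11.36 ± 0.27) and Gabrd (-2.05 ± 0.06), which encodes the delta subunit of extrasynaptic receptors, were lower. Gabrg3, which encodes a gamma subunit, was higher at 3.55 ± 0.22.

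The 24 measured ionotropic glutamate receptor genes and their auxiliary subunits gave 13 higher, 8 lower and 3 uncalled. Grin2b, the NMDA receptor subunit gene of forebrain, ran from 12.9 to 22.9 CPM (median 17.3) against 0.266 to 2.02 CPM (median 1.22), while Grin2c, the subunit gene of granule cells, ran from 166 to 301 CPM (median 219) against 383 to 937 CPM (median 539.8). Grin2a was not called (0.34 ± 0.22). Grid1, a delta receptor gene, was higher at 1.88 ± 0.07. The AMPA receptor auxiliary subunits Cacng3 (3.85 ± 0.10), Cacng4 (2.37 ± 0.08) and Cacng8 (3.36 ± 0.08) were higher in striatum, and Cacng2, the stargazin gene, was lower at -1.79 ± 0.07. Of 7 metabotropic receptor genes, 3 were higher and 4 lower. Grm5 ran from 42.5 to 192 CPM (median 151) against 0.570 to 3.62 CPM (median 1.62), a log2 difference of 6.22 ± 0.15.

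Signalling genes below these receptors were divided as well. Of 36 genes of this calcium store pathway, 14 were higher, 20 lower and 2 uncalled, with a median of -0.63. Over all genes tested, 36.6% were higher and 39.7% lower. Phospholipase C genes stood at 2.76 ± 0.16 for Plcb1 and -3.15 ± 0.06 for Plcb4, the isoform of Purkinje cells. Homer1 and Homer3, which tether the receptors to the store, stood at 2.08 ± 0.11 and -3.76 ± 0.13. Itpr1, the store's inositol trisphosphate receptor gene, was lower at -1.19 ± 0.07 and its relatives Itpr2 and Itpr3 were higher at 1.56 ± 0.11 and 1.67 ± 0.14. Among calcium pumps, Atp2b1 of the plasma membrane stood at 2.17 ± 0.13 and Atp2a3 of the store membrane at -6.19 ± 0.12. The kinase CaMKII had its alpha gene Camk2a at 4.42 ± 0.09, running from 701 to 1149 CPM (median 1009.6) against 37.7 to 52.6 CPM (median 45.7), and its delta gene Camk2d at -3.39 ± 0.07. Camk2b, the beta gene, was higher by a smaller amount at 0.37 ± 0.06.

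**Figure D3:**
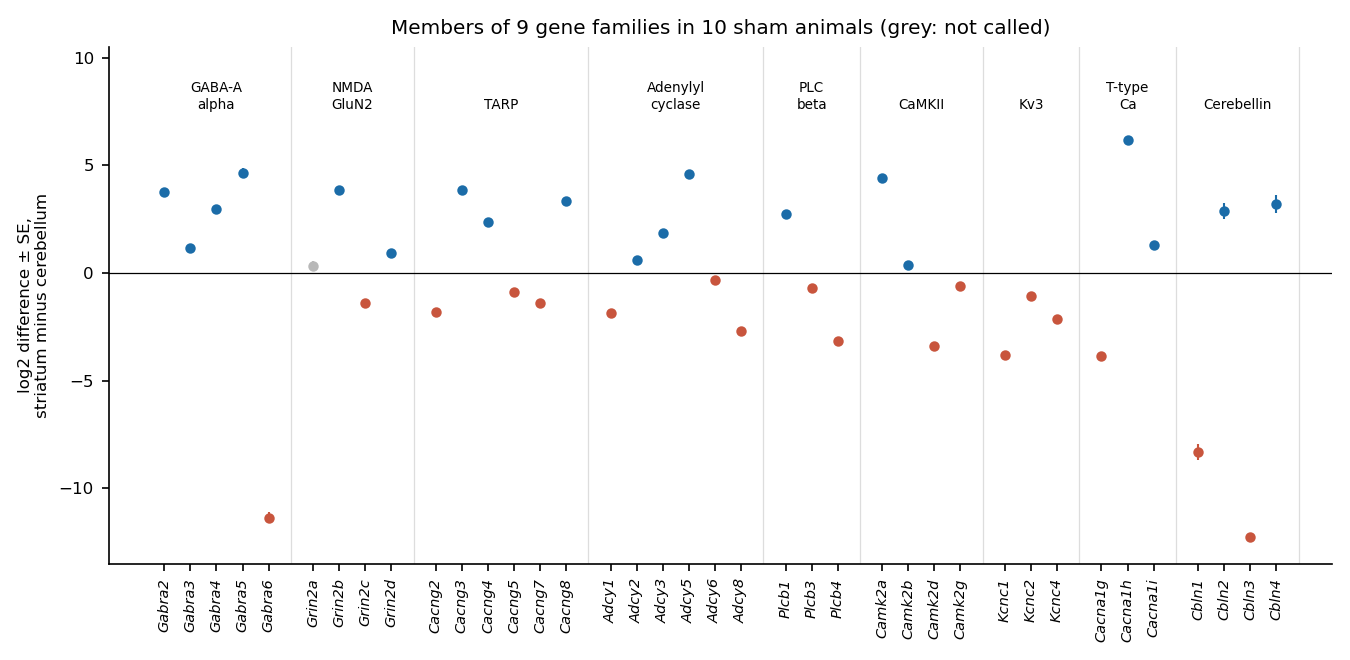
Fitted log2 difference between striatum and cerebellum (y axis, bars are SE, mostly smaller than the points) of the listed members of 9 gene families in 10 sham animals. Members on opposite sides of 0 occur in 8 of the families shown, and the 3 Kv3 potassium channel genes shown (Kcnc1, Kcnc2 and Kcnc4) lie below it.

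Ion channel genes were divided between the regions, as were all genes tested (36.6% higher and 39.7% lower in striatum). Of 47 potassium channel genes, 20 were higher, 26 lower and 1 uncalled, with a median of -0.35. Kcnc1 (-3.81 ± 0.06), Kcnc2 (-1.06 ± 0.12) and Kcnc4 (-2.16 ± 0.10), genes of the Kv3 family of fast-spiking neurons, were lower in striatum. The inward rectifier gene Kcnj4, a channel of the hyperpolarized state of spiny neurons, ran from 142 to 199 CPM (median 175) against 0 to 0.662 CPM (median 0.139). The auxiliary subunit gene Kcnip2, a partner of A-type channels, stood at 4.57 ± 0.08 and its relative Kcnip4 at -2.99 ± 0.11. Leak channel genes stood at 5.06 ± 0.10 for Kcnk2 and at -4.05 ± 0.14 and -4.56 ± 0.15 for Kcnk3 and Kcnk10. Of 27 sodium and calcium channel genes, 16 were higher, 10 lower and 1 uncalled. The T-type calcium channel genes split, with Cacna1h at 6.18 ± 0.10 and Cacna1g at -3.87 ± 0.13. Sodium channel beta subunit genes stood at 5.28 ± 0.15 for Scn3b and 3.88 ± 0.09 for Scn4b.

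Peptides and modulator receptors lay mostly on the striatal side. Of 22 neuropeptide and processing genes, 15 were higher, 4 lower and 3 uncalled, with a median of 2.69. Of 34 modulator receptor genes, 23 were higher, 6 lower and 5 uncalled, with a median of 1.90. Chrm1, a muscarinic receptor gene, ran from 65.3 to 119 CPM (median 84.4) against 0 to 0.713 CPM (median 0.133), and Htr6, a serotonin receptor gene, stood at 7.77 ± 0.23. The opioid receptor genes Oprk1 (6.15 ± 0.24) and Oprd1 (5.43 ± 0.39) were higher in striatum, and Oprm1, low in both regions, was not called (0.34 ± 0.27). Hrh3, the histamine autoreceptor gene, ran from 464 to 707 CPM (median 621) against 24.6 to 35.4 CPM (median 30.5). The largest differences towards cerebellum were those of Sstr3, a somatostatin receptor gene of cilia, at -5.18 ± 0.16 and, among peptides, Adcyap1 at -3.74 ± 0.37. Cnr1, the cannabinoid receptor gene, was abundant in both, with medians of 305 and 442 CPM and a difference of -0.47 ± 0.10.

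Synaptic gene groups differed in their direction. Of 39 vesicle release genes, 14 were higher, 18 lower and 7 uncalled, with a median of -0.11. Over all genes tested, 36.6% were higher and 39.7% lower. Syt10, a synaptotagmin gene, had 1 cerebellar count against a striatal median of 13.1 CPM, a ratio of means of 955 (counting interval 171 to 37700), while Syt2, the fast calcium sensor gene of the hindbrain, stood at -2.91 ± 0.10 and Rims3, an active zone gene, at -3.29 ± 0.12. Of 23 postsynaptic scaffold genes, 18 were higher, 4 lower and 1 uncalled, with a median of 1.32. Nrgn, encoding the calmodulin buffer neurogranin, ran from 1899 to 3101 CPM (median 2609) against 2.55 to 14.4 CPM (median 5.73). Dlg4, the PSD-95 gene, was higher at 1.83 ± 0.05 and Dlgap2 at 6.48 ± 0.14, and Dlgap1 was lower at -1.71 ± 0.09. Of 22 synapse organizer genes, 13 were higher, 6 lower and 3 uncalled. The cerebellin genes stood at -8.32 ± 0.37 for Cbln1 and -12.28 ± 0.20 for Cbln3, and at 2.88 ± 0.35 and 3.19 ± 0.41 for Cbln2 and Cbln4. Of 21 genes for making and moving transmitters, 14 were higher, 6 lower and 1 uncalled. That one was Gad1, a GABA synthesis gene, at -0.02 ± 0.06, with medians of 453 and 470.4 CPM, while its paralogue Gad2 was higher at 1.67 ± 0.10.

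Nuclear hormone pathways also differed by member. Of 15 retinoid genes, 8 were higher, 3 lower and 4 uncalled. The mean of this list was 3.25 to 3.61 log2 CPM in cerebella of animals 6, 8, 9, 10 and 11 and 2.68 to 3.06 in the other 5, the same split as the meningeal fibroblast list, with which it shares 1 gene. The part of meningeal tissue in the retinoid differences was not tested. The receptor genes Rarb (4.47 ± 0.10) and Rxrg (5.39 ± 0.10) and the binding protein gene Crabp1 (8.17 ± 0.23, but 10.73 in males alone, with cerebellar levels near 0) were higher in striatum, and Cyp26b1, which degrades retinoic acid, was lower at -3.59 ± 0.13. Of 11 thyroid hormone genes, 7 were higher, 1 lower and 3 uncalled. Crym, a thyroid hormone-binding protein gene, stood at 3.40 ± 0.09, the receptor gene Thrb at 2.92 ± 0.14, and Hr, a corepressor gene, at -1.74 ± 0.10. Of 21 activity-induced genes, 13 were higher, 6 lower and 2 uncalled. Egr2 had 3 cerebellar counts, for a ratio of means of 242 (counting interval 82.7 to 1170), and Arc stood at 2.34 ± 0.12. Fos was lower at -0.71 ± 0.22, Jun at -1.32 ± 0.08, and the growth factor gene Bdnf at -3.59 ± 0.41, with a cerebellar median of 13.7 CPM against 0.715 in striatum. In striatum Bdnf ran from 1.77 to 3.84 CPM in animals 2, 6, 8 and 12, the 4 with the highest cortical list means (3.91 to 4.32 log2 CPM, against 2.16 to 3.40), and from 0 to 0.808 CPM in the others. Its difference was -5.32 in males alone, and the part of cortical tissue in it was not tested.

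Glial and vascular markers were mostly higher in striatum, with smaller list medians than the striatal neuron markers. All 12 microglial genes were higher, 11 over 2-fold, with a median of 1.70. Csf1r, the growth factor receptor gene of microglia, ran from 134 to 208 CPM (median 171) in striatum and from 40.5 to 56.4 CPM (median 46.5) in cerebellum, and Tmem119 stood at 2.13 ± 0.14. All 11 endothelial genes were higher with a median of 1.16, 5 over 2-fold, such as Pecam1 at 1.53 ± 0.12. Of 10 oligodendrocyte precursor genes 9 were higher and 1 lower, with a median of 1.36 and Pdgfra at 1.82 ± 0.11. Of 14 myelin genes 13 were higher and 1 was not called, with a median of 0.91. Mbp, the myelin basic protein gene, ran from 4732 to 18764 CPM (median 9188) in striatum and from 2857 to 6748 CPM (median 4231) in cerebellum, so its libraries overlapped. The difference of Mbp within animals ran from -0.51 to 2.14, and animal 12, with the lowest striatal level, was the one below 0.

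Astrocyte genes had no common direction. Of 12, 6 were higher, 4 lower and 2 uncalled, with a median of 0.31. Slc1a2, the main glutamate transporter gene of forebrain astrocytes, ran from 67.6 to 492 CPM (median 269) against 16.9 to 73.8 CPM (median 38.5), and Gja1, the connexin 43 gene, stood at 1.76 ± 0.09. Slc1a3, the transporter gene of Bergmann glia, which are the radial astrocytes of the cerebellum, was lower at -0.51 ± 0.06. Of 9 Bergmann glia genes, 8 were lower and 1 higher, with a median of -1.23. Gdf10, a growth factor gene of these cells, ran from 84.6 to 125 CPM (median 107) in cerebellum against 4.05 to 11.4 CPM (median 8.37) in striatum, and Fabp7 was the member higher in striatum at 0.50 ± 0.11. Gfap, the intermediate filament gene, was not called (-0.20 ± 0.17).

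**Figure D4:**
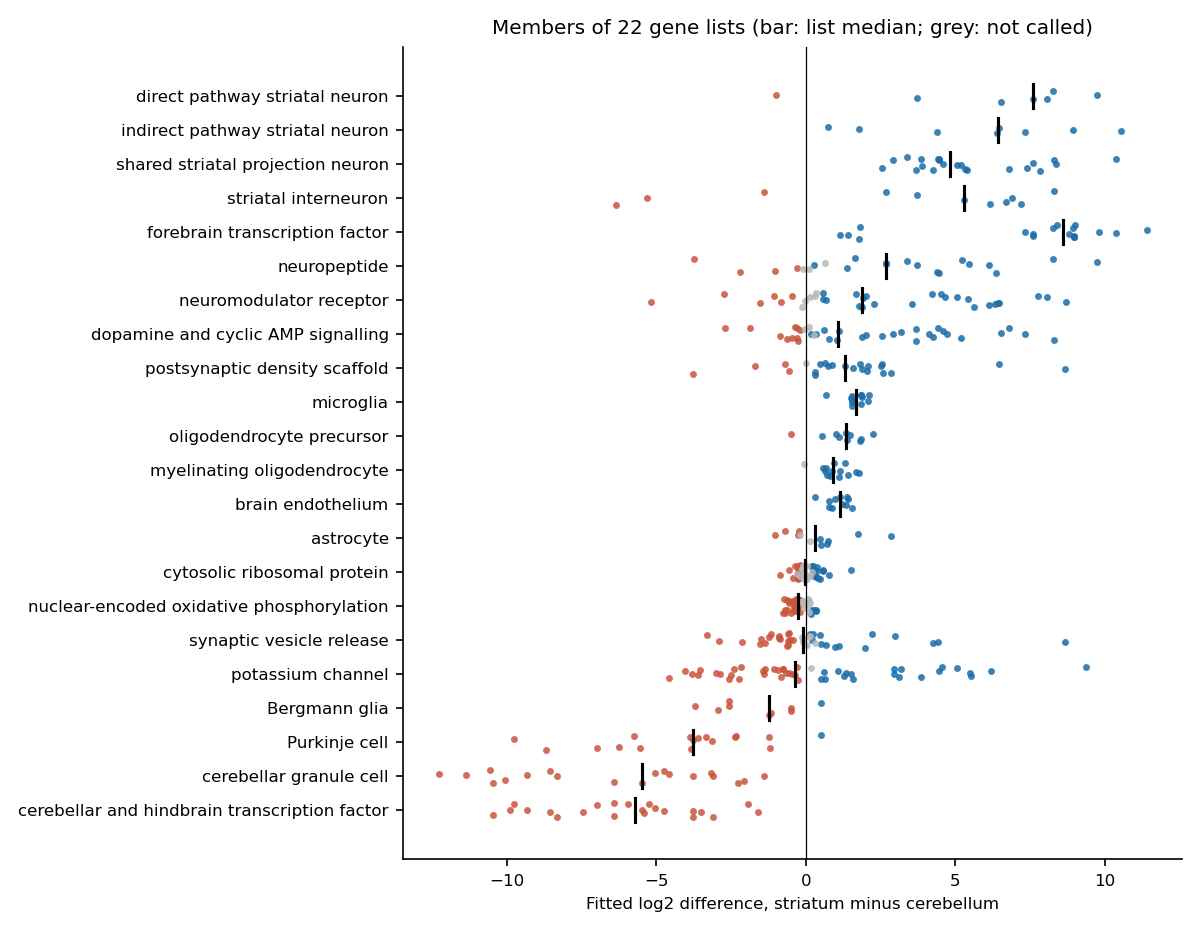
Fitted log2 differences between striatum and cerebellum (x axis) of the measured members of 22 gene lists in 10 sham animals, with a bar at each list's median, blue or red for members called higher or lower in striatum and grey for members not called. List medians run from 8.61 for forebrain transcription factors to -5.71 for cerebellar and hindbrain factors, and glial lists lie between them, from 1.70 for microglia to -1.23 for Bergmann glia.

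Housekeeping genes differed little by list median, while animals varied. Of 38 ribosomal protein genes, 14 were higher, 12 lower and 12 uncalled, with a median of -0.01, and Rplp1 at 1.52 ± 0.09 was the member past the over 2-fold test. The ribosomal list mean ran from 8.18 to 9.21 log2 CPM over the striata, highest in animal 12, and from 7.79 to 8.88 over the cerebella. Within animals its difference ran from -0.50 to 0.55. The part of library quality in this spread was not tested. Of 40 nuclear genes of oxidative phosphorylation, 26 were lower in striatum, 5 higher and 9 uncalled, with a median of -0.27 and 0 over 2-fold. Over all genes tested, 1040 (8.87%) had a 95% interval of the log2 difference within 0.25 of 0 on either side. The 6 of these with the highest mean level were Eef2, Psap, Phyhip, Tspan7, App and Zmiz2. Psap, the precursor of lysosomal saposins, ran from 1749 to 2124 CPM (median 1897) against 1758 to 2022 CPM (median 1873), with a difference of 0.01 ± 0.05. App, the amyloid precursor gene, stood at 0.06 ± 0.07. Tspan7 was called at -0.14 ± 0.05 (edgeR adjusted p = 0.0126) and lost the call under 5 of 22 alternatives, upper quartile scaling among them (-0.09). Eef2 was not called at -0.09 ± 0.07, but was with library totals alone (-0.15).

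Markers of neighbouring tissue were measured in the same libraries. The mean of the cortical excitatory neuron list ran from 2.16 to 4.32 over the striata and from 4.48 to 4.67 over the cerebella (log2 CPM). Of its 12 genes, 1, Slc17a7, also stands in the granule cell list, but other members were lower in striatum too. Of its 10 measured genes, 3 were higher, 6 lower (4 over 2-fold) and 1 uncalled, with Neurod2 lowest at -5.72. In striatum Slc17a7 ran from 5.93 CPM (animal 1) to 269 CPM (animal 12), and Tbr1, a cortical factor gene, from 0.451 to 21.2 CPM (median 3.94). The olfactory bulb list, of which 5 of 12 genes also stand in neuron lists of these regions, ran from 3.65 to 4.06 in 8 striata, with animal 3 at 4.08 and animal 12 at 5.60. The choroid plexus list ran from 1.51 to 2.67 in 9 cerebella and stood at 6.29 in that of animal 1. In striatum it ran from 1.08 to 3.17. Cerebella of animals 6, 8, 9, 10 and 11 had meningeal fibroblast list means from 4.99 to 5.90, against 3.34 to 4.04 in the other 5. Striata had means of 3.51 to 4.15, and 5.11 in animal 12. Of 12 meningeal genes 9 were not called between regions, 1 was higher and 2 were lower in striatum. Igfbp2, called lower at -2.40 ± 0.60, was not called without the 5 animals with transcripts of both sexes (edgeR adjusted p = 0.0564). The part of these tissues in the region differences was not tested gene by gene, and the counts without animals 1 and 12 are given above.

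**Figure D5:**
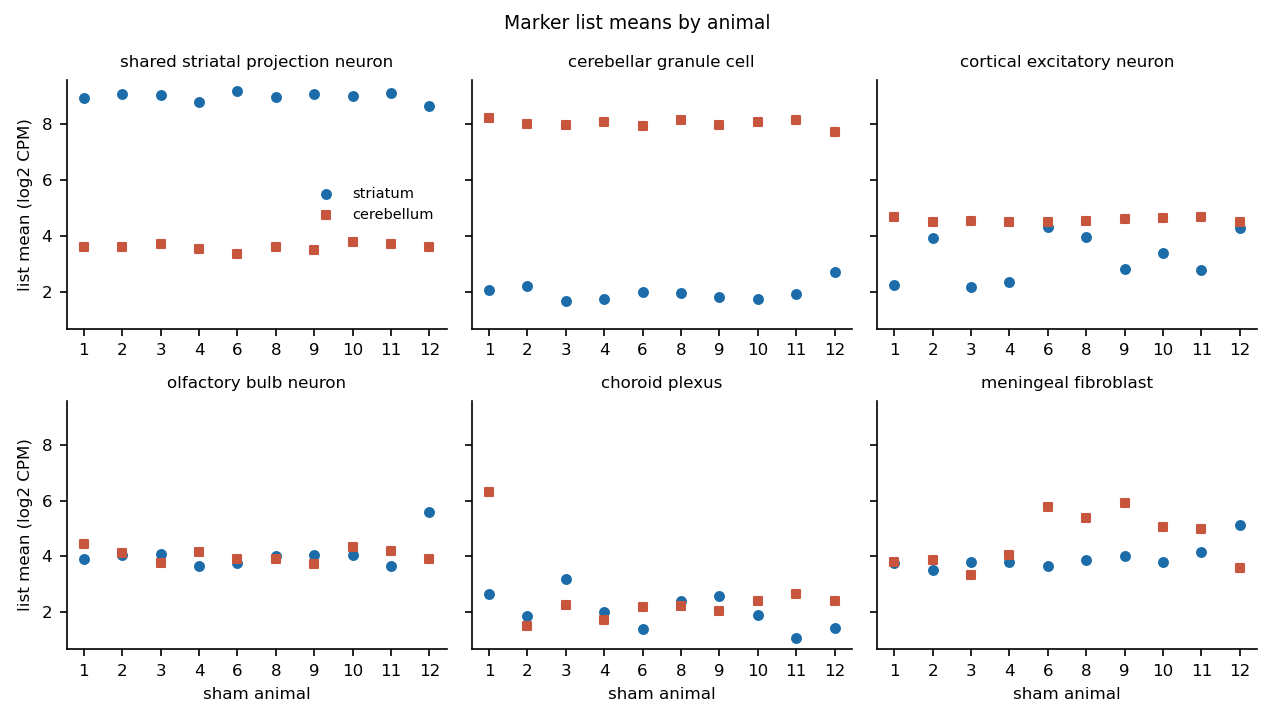
Mean log2 CPM of 6 marker lists (y axis) in the striatal (blue circles) and cerebellar (red squares) library of each of 10 sham animals (x axis, labelled by animal number). The projection neuron and granule cell lists separate the regions in every animal, while single libraries stand apart in the lists of choroid plexus (cerebellum 1, at 6.29) and olfactory bulb (striatum 12, at 5.60).

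A second set of animals gave the same comparison with other libraries. In 11 PCB52 rats with both regions (5 males and 6 females), 8355 of 11717 genes (71.3%) were called, 35.3% being higher and 36.1% lower in striatum, and 1558 (13.3%) and 703 (6.0%) passed the over 2-fold test towards striatum and cerebellum. Of the striatal genes 1289 passed in both sets, 89.1% of the sham list and 82.7% of the PCB52 list. Of the cerebellar genes 632 passed in both, 78.4% and 89.9% of the lists, and 0 genes of either list passed in the opposite direction. Values of 4 genes, picked with their values in view, are set side by side. Drd1 stood at 6.46 ± 0.36 in PCB52 animals against 6.52 ± 0.16 in sham animals, Ppp1r1b at 3.42 ± 0.14 against 3.70 ± 0.07, Pcp2 at -5.98 ± 0.34 against -5.73 ± 0.12 and Zic1 at -4.84 ± 0.32 against -5.47 ± 0.14, which is over 1.5 times apart. Whether exposure changed a region difference was not tested here.

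Males and females were compared in their region differences. Males were assigned at 39 days of age and females at 42 days, so sex and age at assignment cannot be told apart. No gene differed between the sexes in its striatum minus cerebellum difference at an adjusted p under 0.05 (0 of 11731 genes, 0.0%, in edgeR, DESeq2 and limma alike). Unadjusted p-values under 0.05 numbered 269, 206 and 268 by these tools, below the 587 expected by chance. The 6 genes of lowest p were Casp1, Nrn1, Rgs14, Rtn4r, Slc6a7 and a gene with the identifier 100362040 and no symbol. Rgs14, a regulator of G protein signalling, ran from 65.1 to 133 CPM (median 105) in striatum and from 0 to 0.958 CPM (median 0.201) in cerebellum, with a female minus male difference of 2.77 ± 0.56 (SE, edgeR adjusted p = 1.0), and rested on a cerebellar level near 0. Nrn1, the neuritin gene, and Rtn4r, the Nogo receptor gene, stood at 1.52 ± 0.38 and 2.01 ± 0.44 (each with an edgeR adjusted p of 1.0). Both are abundant in cortical neurons, and the cortical list mean in striatum ran from 2.16 to 2.82 in the 4 males and from 2.33 to 4.32 in the 6 females. Nrn1 is itself a member of that list, so its own level enters the mean. The part of cortical tissue in these values was not tested. With 4 males and 6 females, 3 of 4 males and 2 of 6 females had a library with transcripts of both sexes, so sexes here are those of the labels.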

How the data were processed

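Raw gene counts, as deposited by the authors in 1 table per region, are whole numbers over 15319 Entrez identifiers. Per the submitters' processing notes, FastQC, HISAT2 and the rn6 genome were used. Their versions, and the counter, annotation and strand setting, were not given in the sources used. Reads shared by near-identical or antisense genes cannot be told apart. Per the labels' protocols, RNA came from tissue punches by TRIzol and RNeasy.

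The tables were joined on the identifier, and 15230 identifiers (99.4%) matched a symbol in the RefSeq GRCr8 table, used for names and promoter windows. Counts were scaled by TMM, filtered by edgeR's filterByExpr by region and fitted with edgeR 4.0.16 (R 4.3.3, quasi-likelihood, animal as block, two-sided), with glmTreat for the over 2-fold test and a region by sex term for the sexes. The filter passes a gene that has enough counts in 1 region alone, so list members near 0 in the other region were measured only through the higher one. DESeq2 1.42.0, limma 3.58.1 (voom), other scalings, no filter, no block, each sex alone and each animal left out were alternatives. Leaving out animals 1 and 12 was added after seeing the data. Scripts were tested on simulated data. The animal number and title suffix are shared by both libraries of an animal, which gives the pairing by label. In the 5 animals with transcripts of both sexes, only 1 library of the pair held them. In animal 9, a labelled male, Xist stood at 265 CPM in cerebellum and 0.605 in striatum (scaled by library totals). Whether these libraries hold RNA of another animal was not tested, so the block may not hold there. Deviations from the region means correlated between the libraries of an animal from -0.0478 to 0.561, above 0.1 in 7 of 10 animals. Of 10 striatal libraries, 4 correlated best with the cerebellar library of their own animal. Animals are the replicates. No libraries were duplicates.

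Genes were named by rule: the 12 per direction with the largest log2 difference past the over 2-fold test, with the same sign in every animal and at least 10 CPM in the higher region; the extreme called members of each list and its defining markers; the 6 of highest level with a 95% interval within 0.25 of 0; and the 6 of lowest p for sex. All further list members in the text were picked with their values in view. The members of the comparison and the 42 gene lists were chosen with earlier results of these data known, so list counts are descriptions. Counting intervals are exact and, like floors, cover counting error only. Sham male 7, with cerebellum alone, was left out, and 3 labelled samples were not analysed here. Some genes that the rule names are not reported here.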

Additional observations from a re-analysis of the deposited data

Results flagged for a closer look

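In each group of 10 animals, the highest and the lowest value were checked for a gap to the next value that is large against the whole range (Dixon's test, limit 0.466). Of 74 groups, 9 had such a value, where chance gives about 1 in 20. For the within-animal log2 difference (striatum minus cerebellum) these were Dlx5, lowest in animal 8 at 5.61 (next 6.70), Crtam, highest in animal 1 at -6.85 (next -8.01), Lhx1, highest in animal 9 at -6.24 (next -7.38), and Barhl2, highest in animal 12 at -6.19 (next -7.61). All 4 genes were at or near 0 counts in the lower region. The 74 groups did not cover every gene of the lists. Outside them, animal 12 stood apart for Calb2 at -2.97 (next -6.04), Grm2 at 0.64 (next -2.57) and Lhx5 at -3.43 (next -6.07).

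The other 5 were list means in log2 CPM. Striatum of animal 12 stood highest for the granule cell list at 2.71 (next 2.18), the meningeal fibroblast list at 5.11 (next 4.15), the olfactory bulb list at 5.60 (next 4.08) and the list of thalamic, septal or hypothalamic neurons at 3.67 (next 2.78). Cerebellum of animal 1 stood highest for the choroid plexus list at 6.29 (next 2.67).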

How the results depend on the processing

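No count of called genes moved by 1.5 times or more under any alternative run. Leaving out each animal in turn gave 8599 to 8940 called genes (4202 to 4329 higher and 4370 to 4646 lower in striatum) and 2202 to 2315 past the over 2-fold test (1410 to 1501 and 776 to 814). With no replicate block, 8326 genes were called and 2156 passed the over 2-fold test, 2147 of them among the 2253 of the paired fit. The count past the over 2-fold test was 1983 with DESeq2, 2033 with limma, 2173 in males alone and 2024 in females alone. The higher share of called genes was 48.0% with TMM, 44.2% with library totals alone and 51.9% with upper quartile scaling. Of 96 genes named by rule, 86 kept their call under all 22 alternatives, and the other 10 were Casp1, Cox7a2, Dcn, Eef2, Folr1, Igfbp2, Ptprk, Slc6a7, Tspan7 and the gene 100362040. The median of the thalamic, septal or hypothalamic list was -1.65 and turned to 0.52 with no filter on low counts, where 9 rather than 5 genes were measured. It was -0.34 without the 5 animals with transcripts of both sexes and -3.05 in males alone. Medians of 9 further lists moved by over 1.5 times without a change of sign. In males alone the median was 6.59 for direct pathway, -6.09 for granule cell, -2.06 for cortical and -1.69 for brainstem genes (7.60, -5.47, -0.78 and -0.88 in all animals). With limma it was 6.74 for direct pathway genes and 7.45 for forebrain factors (8.61 in edgeR). With no filter it was -4.28 for hindbrain factors (-5.71 filtered), -0.43 for metabotropic glutamate receptors (-1.23) and 2.37 for olfactory bulb genes (1.35). The striatal interneuron median, 5.29, ran from 3.65 with no filter to 6.68 without those 5 animals. Depth limits the genes at 0 to 3 counts in a region, whose folds are bounds or wide intervals.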
